A study of Saccharomyces cerevisiae with 24 samples.

Results

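Messenger RNA levels were compared directly between MMS-treated mbf1Δ cells and MMS-treated gcn4Δ cells of budding yeast, Saccharomyces cerevisiae. The libraries were taken by their titles, 3 of treated mbf1Δ and 3 of treated gcn4Δ, which makes 6 of the 24 libraries of the series. The study crossed 4 strains (wild type, gcn2Δ, mbf1Δ and gcn4Δ) with no treatment or MMS, in 3 biological replicates each. Every strain was haploid BY4741, MATa, grown in rich YPD medium to an optical density near 0.6. In the mbf1Δ strain the MBF1 gene is replaced by the marker NAT, and in the gcn4Δ strain the GCN4 gene is replaced by the marker KAN, so the mutants also differ in their cassette. Treated cells received 0.1% methyl methanesulfonate (MMS) for 1 hour. The untreated mbf1Δ and gcn4Δ libraries, 6 in all, and the 3 treated wild type libraries were used to place the difference. The labels do not say how many clones of a strain were used. The p-values measure the spread between replicates within groups, estimated over all 24 libraries together and not from the compared libraries alone.

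MMS is an alkylating agent that damages DNA and RNA, and damaged messages stall and collide ribosomes. Gcn4 is the transcription factor of general amino acid control: when the kinase Gcn2 phosphorylates eIF2, translation of GCN4 rises and Gcn4 switches on genes of amino acid synthesis. Mbf1 is a small conserved coactivator that bridges Gcn4 and the TATA-binding protein, and it also acts on collided ribosomes. Treated cells without one protein or the other therefore share a loss within one pathway, and the comparison asks what differs between them.

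A level is given in CPM, the count of a gene relative to the scaled total of its library. A difference is on the log2 scale, mbf1Δ minus gcn4Δ, with its standard error (SE). A gene is called when its adjusted p is under 0.05 by edgeR's quasi-likelihood test with Benjamini-Hochberg adjustment over all genes tested. Levels are relative to the rest of each library, so a rise per cell, a change in total RNA and a change in the mix of cells cannot be told apart.

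Each deleted gene was far lower in the strain labelled as its deletion. MBF1 was at 0.076, 0.415 and 0.4 CPM in treated mbf1Δ and at 725, 722 and 672 CPM in treated gcn4Δ. GCN4 was at 326, 359 and 363 CPM in treated mbf1Δ and at 26.8, 22.2 and 27.1 CPM in treated gcn4Δ. The counted GCN4 model is longer than its coding sequence, and reads from the part outside the deletion cannot be told from the rest. Both genes are left out of all counts. The treated libraries held 14525774 to 28366559 counts. A joint list of MATa and pheromone genes summed to 2390 to 3960 CPM in the treated mutant libraries. A list of 4 MATα genes summed to 96.5 to 125 CPM in the same libraries.

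The libraries of the strains differed in composition. A set of 13 genes in or matching the ribosomal DNA took 9.67%, 19.3% and 19.6% of the counts in treated mbf1Δ and 0.516%, 0.763% and 0.772% in treated gcn4Δ. The same set took 8.92% to 15.0% in untreated mbf1Δ and 1.1% to 1.59% in untreated gcn4Δ, so the gap was there without MMS. Strain and this share cannot be told apart, and replicate 1 of treated mbf1Δ stood apart from its group. Among its members the rRNA-matching TAR1, YLR154C-G, RRT15 and YLR162W led the called genes that averaged 50 counts or more in either group, with differences from 4.76 to 5.70 on the log2 scale. Their reads cannot be told from those of ribosomal RNA.

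**Figure D1:**
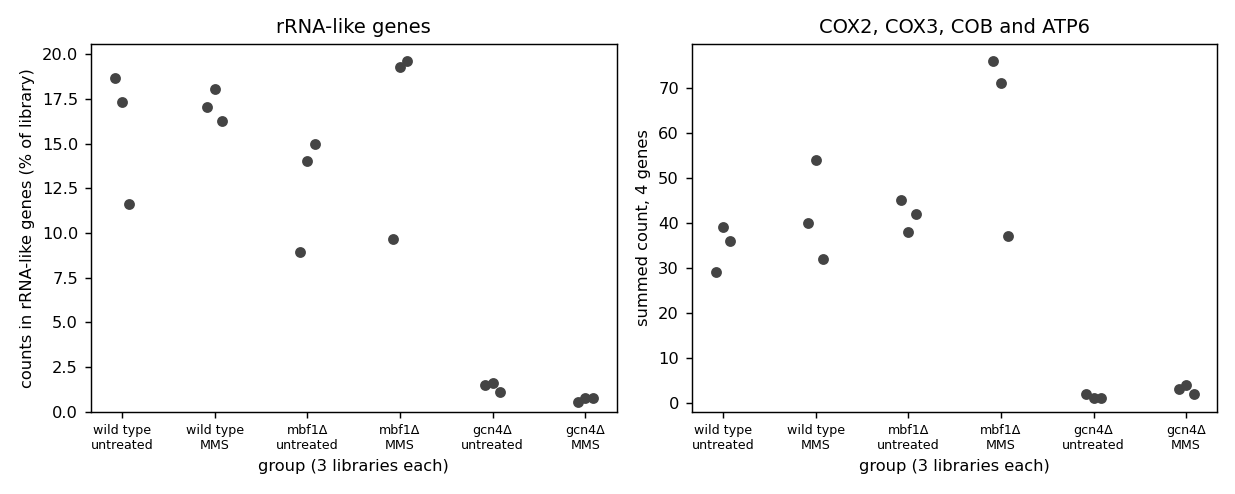
Share of counts in 13 rRNA-like genes (left, percent of library) and summed raw count of 4 mitochondrially encoded genes (right), 1 point per library, 3 libraries per group. The gcn4Δ libraries sit below all wild type and mbf1Δ libraries in both panels, with and without MMS.

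Of 5822 genes tested, 1601 (27.5%) were higher and 1527 (26.2%) lower in treated mbf1Δ than in treated gcn4Δ, together 53.7%. Most of these differences were small, with a median size of 0.434 among called genes. Only 85 genes (1.46%) were higher by at least 2-fold and 230 (3.95%) lower by at least 2-fold. The levels of 3385 genes (58.1%) did not overlap between the 2 groups of libraries. Counts of list members below are to be read against these shares. The balance of directions depends on the scale, since 51.2% of called genes were higher here, 9.73% with TPM as deposited and 74.9% with TPM rescaled after leaving out the rRNA-like genes. Those scales moved the median of all genes to -0.227 and 0.226, against 0.026 here, and list medians relative to all genes are given where they matter.

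**Figure D2:**
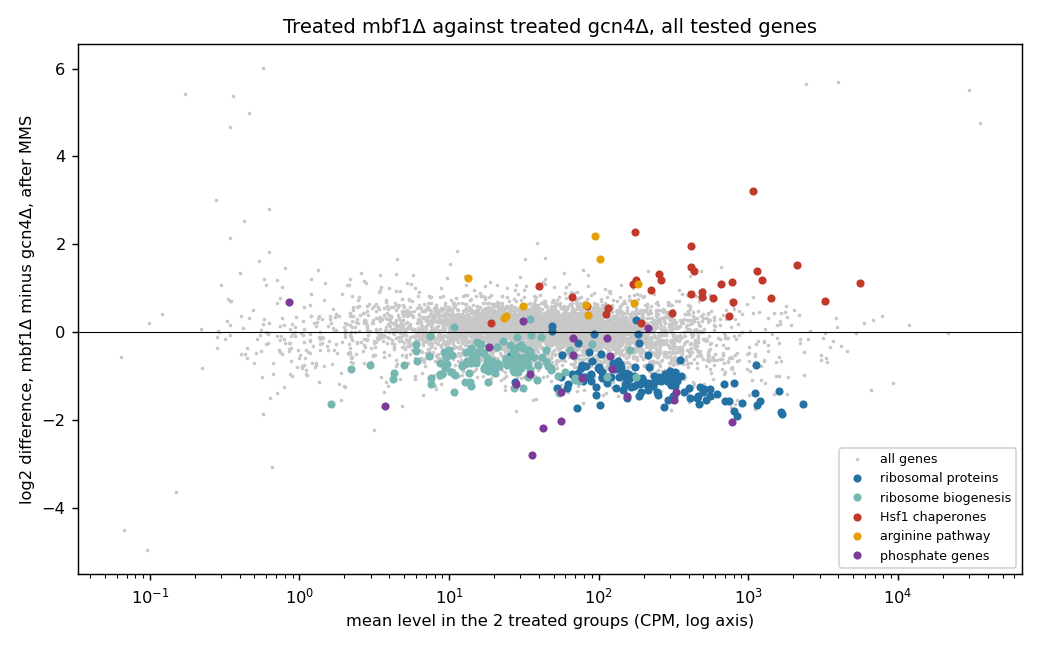
Log2 difference of treated mbf1Δ minus treated gcn4Δ (vertical axis) against the mean level of the 2 groups in CPM (log axis), 1 point per tested gene, with 5 gene lists coloured. Hsf1 chaperone and arginine genes lie above 0 (list medians 1.01 and 0.64), while ribosomal protein, ribosome biogenesis and phosphate genes lie mostly below (list medians -1.11, -0.72 and -1.06).

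Genes of arginine synthesis, known targets of Gcn4, were higher in treated mbf1Δ than in treated gcn4Δ in 10 of 10 cases, with a median difference of 0.64 against 0.03 for all genes. A gap was there without MMS too. Untreated, 7 of 10 were higher in mbf1Δ and none lower, with a median of 0.54, where 6.1% of all genes were called higher. ARG7, a mitochondrial ornithine acetyltransferase, was at 161, 151 and 155 CPM in treated mbf1Δ and at 34.6, 34.8 and 32.5 CPM in treated gcn4Δ. Both groups were tight and far apart, a difference of 2.20 (SE 0.051, adjusted p = 6.58e-19) or 4.58-fold. ARG4, argininosuccinate lyase, was at 236, 255 and 261 CPM against 118, 118 and 116 CPM. No library of one group reached the other, and the difference was 1.09 (SE 0.052, adjusted p = 5.63e-13).

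The step before the last one in the pathway differed less. ARG1, argininosuccinate synthetase, was at 91.1, 103 and 107 CPM in treated mbf1Δ and at 65.2, 65 and 65.3 CPM in treated gcn4Δ, a difference of 0.62 (SE 0.084, adjusted p = 2.09e-06). In treated wild type ARG1 was at 1060, 952 and 1010 CPM, so both mutants were far below wild type and close to each other. ARG7 was at 711, 749 and 697 CPM in treated wild type, and ARG4 at 1680, 1700 and 1670 CPM. Treated mbf1Δ thus lay between treated gcn4Δ and treated wild type for all 3 genes. Against the same wild type libraries 41.4% of all genes were called in mbf1Δ and 44.1% in gcn4Δ, and the list's median was -2.28 for mbf1Δ and -3.23 for gcn4Δ, with 10 of 10 members lower in each mutant (background shares of lower calls 19.8% and 21.6%).

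The core of the Gcn4 binding site, TGACTC on either strand, was found in 9 of 10 arginine windows and in 8.69% of 5797 windows over all genes. A window is 300 bases long and starts 400 bases before the start codon, in the RefSeq R64 genome, and it can include sequence of a neighbouring gene. The windows of ARG7 (chrXIII:396480-396779, minus strand) and ARG1 (chrXV:218811-219110, plus strand) are printed because the first gene differed most within the list and the other less. Capitals mark the core, 1 match for ARG7 and 2 for ARG1, of which the later one is on the other strand.
ARG7: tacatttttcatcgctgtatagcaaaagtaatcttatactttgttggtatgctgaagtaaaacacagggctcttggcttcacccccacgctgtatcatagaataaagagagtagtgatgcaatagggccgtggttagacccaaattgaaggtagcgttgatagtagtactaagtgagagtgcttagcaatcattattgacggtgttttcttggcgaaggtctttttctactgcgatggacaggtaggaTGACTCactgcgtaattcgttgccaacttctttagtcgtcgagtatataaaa
ARG1: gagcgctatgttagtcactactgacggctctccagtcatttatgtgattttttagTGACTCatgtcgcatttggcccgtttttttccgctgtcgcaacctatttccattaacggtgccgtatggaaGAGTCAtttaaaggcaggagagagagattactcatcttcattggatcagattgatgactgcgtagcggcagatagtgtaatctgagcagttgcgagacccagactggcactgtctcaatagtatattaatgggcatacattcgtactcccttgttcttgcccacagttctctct
A match describes these letters and is not evidence of binding.

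Other amino acid pathways did not move as one. In histidine synthesis 4 of 6 members were higher and none lower, with a median of 0.21. Untreated, 4 of 6 were higher in mbf1Δ and none lower, with a median of 0.28. HIS4, which carries several steps of the pathway, was at 161, 205 and 207 CPM in treated mbf1Δ and at 95.8, 87.7 and 89.1 CPM in treated gcn4Δ. Its groups did not overlap, and the difference was 1.07 (SE 0.11, adjusted p = 2.54e-08). HIS5, histidinol phosphate aminotransferase, differed by 0.81 (SE 0.057). The histidine median turned to -0.05 with TPM as deposited, where the median of all genes lay at -0.227.

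In lysine synthesis 4 of 9 members were higher and 2 lower, with a median of 0.14. Untreated, 6 of 9 were higher in mbf1Δ and none lower, with a median of 0.28. LYS2, alpha aminoadipate reductase, was higher by 0.93 (SE 0.07), while LYS1, saccharopine dehydrogenase, was at 144, 151 and 151 CPM against 128, 129 and 124 CPM. That small gap of 0.23 (SE 0.063, adjusted p = 0.00413) was not called with TPM as deposited, where it was -0.00057. LYS4, homoaconitase, was lower, with a difference of -0.43. LYS20 and LYS21, near copies that both encode homocitrate synthase, stood at -0.34 and 0.42, and the counting can split reads between them. In the branched-chain list 5 of 11 members were higher and 3 lower, led by LEU1, isopropylmalate isomerase, at 0.89 and by BAT2, the cytosolic aminotransferase, at -0.89.

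The threonine branch held the widest split. HOM2, aspartate semialdehyde dehydrogenase, was at 303, 376 and 394 CPM in treated mbf1Δ and at 158, 156 and 152 CPM in treated gcn4Δ, a difference of 1.20 (SE 0.083, adjusted p = 8.21e-11). THR1, homoserine kinase, acts later in the same route and went the other way, with 140, 222 and 213 CPM against 428, 433 and 433 CPM. Neither gene overlapped between groups, and THR1 differed by -1.17 (SE 0.15, adjusted p = 1.69e-06). In treated wild type HOM2 was at 1190, 1130 and 1140 CPM and THR1 at 451, 364 and 415 CPM. HOM2 was thus below wild type in both mutants, whereas for THR1 gcn4Δ lay 0.07 from wild type (adjusted p = 0.732) and mbf1Δ lay -1.10 from it. Within the serine, glycine and threonine list 3 of 16 members were higher and 6 lower.

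Aromatic amino acid genes were higher in 4 of 15 cases and lower in 2, led by ARO1, the pentafunctional shikimate enzyme, at 0.95 and by the transaminase ARO9 at -0.79. SNZ1, a vitamin B6 synthesis gene under Gcn4, was at 20.7, 20.1 and 22.3 CPM against 16.5, 17.6 and 15.9 CPM. The SNZ1 groups did not overlap, but the gap of 0.33 (SE 0.08, adjusted p = 0.00144) was small beside 164, 155 and 163 CPM in treated wild type. Amino acid permeases were higher in none of 18 cases and lower in 8, with a median of -0.29. Without treated mbf1Δ replicate 1 that median was -0.14. The basic amino acid permease gene ALP1 stood at -1.16 and the methionine permease gene MUP1 at -0.60. Purine synthesis genes were lower in 7 of 15 cases and higher in 1, with IMD3, an IMP dehydrogenase, at -1.26 and GUA1, GMP synthase, at -1.0. The purine median of -0.16 was -0.28 without treated mbf1Δ replicate 3 and 0.11 on rescaled TPM. Relative to all genes it was -0.19 here and -0.11 on rescaled TPM. Cytosolic tRNA synthetases were lower in 15 of 22 cases and higher in none, with a median of -0.28 that stayed below 0 in all 16 alternatives.

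Chaperone genes of the heat shock factor Hsf1 were higher in treated mbf1Δ nearly throughout, with 31 of 32 called higher, none lower, and a median difference of 1.01. Of these, 16 were higher by at least 2-fold. SSA4, an inducible cytosolic Hsp70 that refolds damaged proteins, was at 1460, 2100 and 2300 CPM in treated mbf1Δ and at 203, 214 and 217 CPM in treated gcn4Δ. Replicate 1 of mbf1Δ was the lowest of its group and still far above every gcn4Δ library. The difference was 3.21 (SE 0.14, adjusted p = 1.59e-13) or 9.25-fold, and 3.35 without that replicate.

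BTN2, a sorting factor that gathers misfolded proteins, was at 371, 245 and 249 CPM against 57.6, 61.8 and 58.7 CPM. Here replicate 1 of mbf1Δ was the highest of its group, and the difference was 2.28 (SE 0.13, adjusted p = 5.41e-12). HSP26, a small heat shock protein that holds unfolded proteins, was at 623, 683 and 661 CPM against 141, 174 and 188 CPM. Its difference was 1.97 (SE 0.14, adjusted p = 8.6e-11). The nucleotide exchange factors of Hsp70 moved with their partner: SSE1 differed by 1.19 (SE 0.065) and FES1 by 1.31 (SE 0.071). HSP104, the disaggregase, was named after its values were seen and stood at 1.53. HSF1, the gene of the factor, was looked up after the values were seen and stood at 0.215 (SE 0.053). CPR7, a prolyl isomerase that partners Hsp90, was the member not called, at 0.20 (adjusted p = 0.121).

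In treated wild type SSA4 was at 342, 304 and 347 CPM and BTN2 at 53.6, 59.9 and 55 CPM. BTN2 in treated gcn4Δ lay 0.08 from those libraries (adjusted p = 0.661) and in treated mbf1Δ 2.36 (adjusted p = 2.68e-12). Over the list, 32 of 32 members were higher in treated mbf1Δ than in treated wild type (median 0.88, background 21.6%). In treated gcn4Δ 5 were higher and 8 lower (median 0.01, background 22.5% and 21.6%). Without MMS 6 of 32 members (18.8%) were higher in mbf1Δ than in gcn4Δ, against 6.1% of all genes, and none lower, with a median of 0.14.

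The heat shock element, alternating inverted units to which Hsf1 binds, was searched on both strands in its strict form. It was found in 14 of 32 windows of the list and in 1.09% of all windows. The windows of SSA4 and HSP26 held no strict match. The window of BTN2 (chrVII:772054-772353, plus strand) is printed because BTN2 is the leading chaperone gene named here whose window held it. Capitals mark 2 overlapping matches.
BTN2: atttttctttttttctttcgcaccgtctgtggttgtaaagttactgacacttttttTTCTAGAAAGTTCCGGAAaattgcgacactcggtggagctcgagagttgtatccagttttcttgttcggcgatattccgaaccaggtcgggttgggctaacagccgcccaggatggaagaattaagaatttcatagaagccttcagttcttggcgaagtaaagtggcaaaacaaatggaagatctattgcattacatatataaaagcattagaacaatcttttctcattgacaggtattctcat
No match says only that this form is not in the window.

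**Figure D3:**
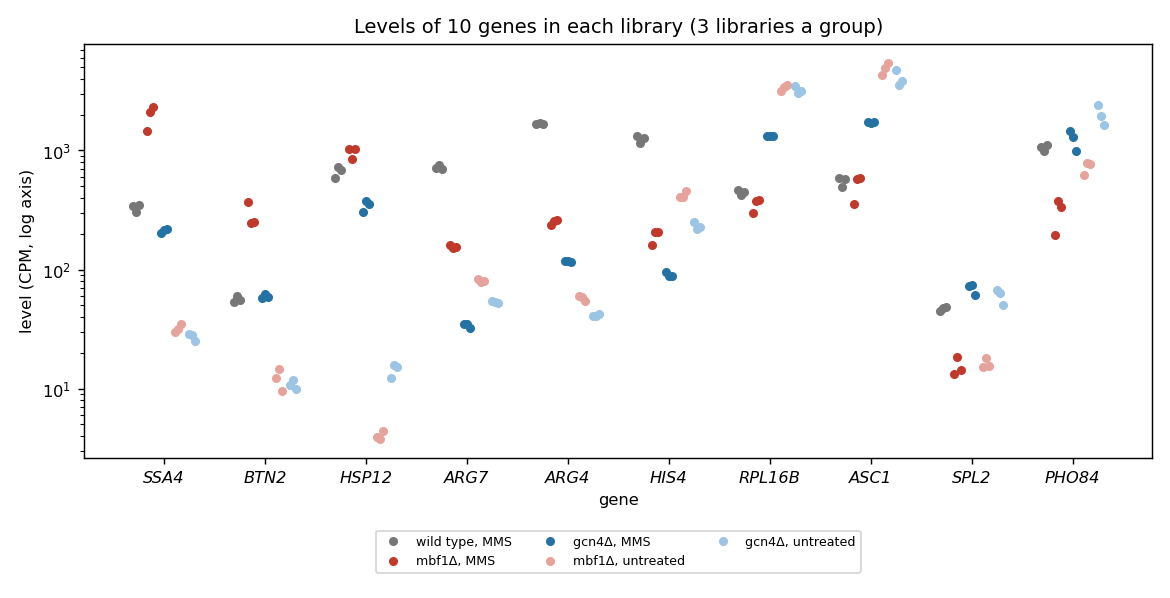
Levels of 10 genes in CPM (log axis), 1 point per library, for treated wild type, mbf1Δ and gcn4Δ and for untreated mbf1Δ and gcn4Δ, 3 libraries each. SSA4 and BTN2 are highest in treated mbf1Δ, ARG7, ARG4 and HIS4 are lowest in treated gcn4Δ among the treated groups, and RPL16B and ASC1 are higher in treated gcn4Δ than in the other treated groups.

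Ribosomal protein genes made the largest block of the lists lower in treated mbf1Δ: 132 of 137 were called lower and 1 higher, with a median difference of -1.11, and 95 were lower by at least 2-fold. RPL16B, a large subunit protein, was at 299, 377 and 382 CPM in treated mbf1Δ and at 1320, 1320 and 1330 CPM in treated gcn4Δ. All mbf1Δ libraries lay far below, at -1.91 (SE 0.12, adjusted p = 1.19e-11) or 3.75-fold lower. RPL5, which assembles with the 5S rRNA, was at 598, 626 and 567 CPM against 1820, 1770 and 1760 CPM, a difference of -1.58 (SE 0.074, adjusted p = 5.22e-13). The stalk proteins RPP0 and RPP2B, which recruit elongation factors, stood at -1.83 and -1.79. RPL4B, RPS26B and RPS22A stood at -1.87, -1.73 and -1.72, and each has a near copy with which reads can be shared. The single gene called higher, RPL8A, also has such a copy and differed by 0.28.

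Against treated wild type these genes were set apart in gcn4Δ and not in mbf1Δ. RPL16B was at 467, 422 and 447 CPM in treated wild type, and RPL5 at 613, 625 and 635 CPM. Of 137 genes, 136 were higher in treated gcn4Δ than in treated wild type (median 1.15, background 22.5%), while 21 were higher and 16 lower in treated mbf1Δ (median 0.01, background 21.6% and 19.8%). Untreated mbf1Δ and gcn4Δ differed by a median of -0.08, with 5 of 137 lower, where 3.49% of all genes were, and none higher. RPL16B was at 3160, 3420 and 3570 CPM in untreated mbf1Δ and at 3510, 3030 and 3170 CPM in untreated gcn4Δ, so the level after MMS was lower in both mutants and less so in gcn4Δ. The difference of the MMS responses was -1.97 (SE 0.16, adjusted p = 4.48e-09) for RPL16B. With the rRNA-like genes left out of the fit 132 genes of the list were again called lower. That setting hardly moved the median of all genes, 0.018 against 0.026, so the count does not bear on library composition. The ribosomal DNA share also differed between these libraries, and its part in the result was not tested.

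Genes of ribosome biogenesis followed with smaller differences. Of 125 genes, 118 were lower and 1 higher, with a median of -0.72, and 19 were lower by at least 2-fold. NOC4, which helps export the small subunit, was at 25.2, 24.9 and 23.5 CPM in treated mbf1Δ and at 53.1, 49.2 and 55.3 CPM in treated gcn4Δ. UTP21, a component of the small subunit processome, was at 33.2, 37.7 and 36.7 CPM against 73.2, 74.2 and 67.3 CPM. Both pairs of groups were apart, by -1.1 (SE 0.058, adjusted p = 1.64e-12) and -1.0 (SE 0.06, adjusted p = 1.05e-11). GAR1, a protein of the H/ACA particles that modify rRNA, differed by -0.92 (SE 0.057). RPA135, the second largest subunit of RNA polymerase I, stood at -1.12, while the RNA polymerase III factors TFC1, TFC3 and TFC4 were higher by 0.28 to 0.50. For the polymerase I and III list as a whole 8 of 36 were higher and 13 lower.

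Treated wild type and treated mbf1Δ were nearer to each other here too. NOC4 was at 21.6, 21.5 and 23.2 CPM in treated wild type, from which mbf1Δ differed by 0.15 (adjusted p = 0.0519) and gcn4Δ by 1.25 (adjusted p = 7.75e-14). Of the 125 genes, 123 were higher in treated gcn4Δ than in treated wild type and 78 were higher in treated mbf1Δ, with medians of 1.1 and 0.36. Before treatment the mutants differed by a median of -0.01.

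The sequences named RRPE (AAAATTTT) and PAC (GATGAG), known from promoters of such genes, were searched on both strands. RRPE was in 88 of 125 windows of the list and PAC in 80 of 125, against 9.32% and 17.8% of all windows. The window of NOP58 (chrXV:898461-898760, minus strand) is printed because it holds both; it encodes a core protein of the C/D particles that methylate rRNA, stood at -1.11 and was chosen after its values were seen. Capitals mark RRPE, PAC on the other strand, and RRPE.
NOP58: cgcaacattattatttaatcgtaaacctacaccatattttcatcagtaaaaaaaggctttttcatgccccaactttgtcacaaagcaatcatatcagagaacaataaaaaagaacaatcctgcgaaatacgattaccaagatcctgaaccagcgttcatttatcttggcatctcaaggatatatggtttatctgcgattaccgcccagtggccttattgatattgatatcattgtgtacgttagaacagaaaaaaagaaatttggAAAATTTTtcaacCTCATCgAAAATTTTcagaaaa
For the ribosomal protein genes the shares were 8.76% for RRPE and 13.1% for PAC.

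Other genes of translation were lower as well. ASC1, the ribosomal scaffold at which collided ribosomes are sensed, was at 358, 580 and 593 CPM in treated mbf1Δ and at 1740, 1700 and 1720 CPM in treated gcn4Δ. The mbf1Δ libraries spread more, with replicate 1 lowest, and all were below gcn4Δ, by -1.75 (SE 0.19, adjusted p = 1.03e-07). SSB1, an Hsp70 that sits at the ribosome exit and has the near copy SSB2, was at 279, 468 and 445 CPM against 1290, 1250 and 1170 CPM. Its difference of -1.64 (SE 0.17) was opposite in sign to that of the stress Hsp70 gene SSA4. Among ribosome-bound chaperones as a list 8 of 14 were lower and none higher.

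Translation factors were lower in 21 of 26 cases and higher in 2, with a median of -0.48. TEF4, a subunit of the exchange factor eEF1B, stood at -1.40 and PRT1, the b subunit of eIF3, at -0.68. TIF1, which encodes eIF4A and has the near copy TIF2, stood at -1.03. HEF3, a second form of the fungal elongation factor eEF3, was among the pair called higher, at 0.48.

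The genes of Gcn2 signalling and eIF2 were lower in 12 of 25 cases and higher in 4. GCN2, the kinase, was at 88.3, 63.5 and 59.4 CPM against 53.8, 48.9 and 53.9 CPM. Its groups did not overlap, at 0.44 (SE 0.11, adjusted p = 0.00193). GCN1, which activates Gcn2 at stalled ribosomes, stood at 0.27, a call that was lost with TPM as deposited. GCD10, a subunit of a tRNA methyltransferase first found through GCN4 control, stood at -0.92.

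In the list of collided ribosome factors, which includes ASC1, 10 of 27 were higher and 6 lower. Without treated gcn4Δ replicate 2 the counts were 5 higher and 6 lower, and without treated mbf1Δ replicate 1 they were 6 and 8. The helicases SKI2 and SLH1, which act in mRNA decay and in splitting collided ribosomes, stood at 0.51 (SE 0.065) and 0.49 (SE 0.067). CDC48, which extracts proteins from stalled ribosomes, stood at 0.50. NEW1, a translation factor, stood at -0.60 and the kinase gene MCK1 at -0.86.

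Genes of the general stress factors Msn2 and Msn4 were higher in 21 of 46 cases and lower in 1. The list's median was 0.24, and 0.00 with TPM as deposited, which is 0.23 relative to all genes. Both mutants lay mostly below treated wild type. Treated mbf1Δ had 21 of 46 lower and 4 higher than wild type (median -0.25, background 19.8% lower). Treated gcn4Δ had 34 lower and 1 higher (median -0.49, background 21.6% lower). HSP12, a small membrane-protecting protein, was at 1020, 849 and 1030 CPM in treated mbf1Δ and at 304, 374 and 355 CPM in treated gcn4Δ, a difference of 1.49 (SE 0.16, adjusted p = 1.07e-07). Before treatment its order was the reverse, with 3.96, 3.76 and 4.38 CPM in mbf1Δ and 12.2, 15.9 and 15.1 CPM in gcn4Δ, a difference of -1.83 (SE 0.24, adjusted p = 2.87e-05). HSP12 was thus lower in mbf1Δ at rest and higher in mbf1Δ after MMS, with groups apart in each. HXK1, hexokinase 1, showed the same order with smaller differences, at -0.79 before and 1.40 after treatment. RTC3 and GRE3, a stress protein and an aldose reductase, were higher after MMS by 1.27 and 0.97. SOD2, mitochondrial superoxide dismutase, was the member called lower, at -0.62.

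Proteasome genes were higher in 32 of 38 cases and lower in 1, with a narrow range and a median of 0.41. RPN7 and RPN11, subunits of the regulatory particle, stood at 0.50 (SE 0.059) and 0.49 (SE 0.06), and PRE2, a catalytic subunit, at 0.48 (SE 0.057). With TPM as deposited 5 of 38 were called higher and the median was 0.14, which is 0.37 relative to all genes. Autophagy genes were higher in 15 of 28 cases and lower in 5, with ATG9, a membrane protein of the forming autophagosome, at 0.59. On deposited TPM none of 28 were called higher and 6 lower, with a median of 0.04, which is 0.27 relative to all genes. Without treated mbf1Δ replicate 1 the autophagy list had 10 higher and 4 lower, with a median of 0.18 against 0.35.

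DNA damage and repair genes were higher in 20 of 48 cases and lower in 9, with a median of 0.13. On deposited TPM 2 were higher and 14 lower, with a median of -0.14, which is 0.09 relative to all genes. Without treated gcn4Δ replicate 2 the counts were 14 higher and 10 lower. MAG1, the glycosylase that removes alkylated bases, was named after its values were seen and stood at 1.09 (SE 0.17), with a mean of 59.3 CPM against 28.1 CPM. DDI1, a damage-inducible protease that shares an intergenic region with MAG1, was at 522, 604 and 596 CPM against 327, 325 and 330 CPM, a difference of 0.81 (SE 0.075, adjusted p = 9.53e-09). DDI2 and DDI3, near-identical cyanamide hydratase genes strongly induced by MMS, went the other way, at -1.07 and -1.12. Reads cannot be assigned to one DDI copy with certainty, so the values of DDI2 and DDI3 are not independent. RAD54, a recombination helicase, and PHR1, photolyase, were higher by 0.48 and 0.79.

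Phosphate genes were lower in 17 of 21 cases and higher in none, with a median of -1.06, and 11 were lower by at least 2-fold. PHO89, a sodium-coupled phosphate transporter, was at 6.4, 11.3 and 9.57 CPM in treated mbf1Δ and at 75.2, 61.3 and 51.2 CPM in treated gcn4Δ. The difference of -2.81 (SE 0.23, adjusted p = 1.02e-09) was the lowest of the named genes. SPL2, which downregulates a low-affinity transporter, was at 13.2, 18.3 and 14.4 CPM against 73.2, 74.4 and 61.3 CPM, or -2.19 (SE 0.13, adjusted p = 1.31e-11). PHO84, the high-affinity transporter, was at 194, 379 and 336 CPM against 1450, 1300 and 998 CPM, or -2.04 (SE 0.21, adjusted p = 4.5e-08). All libraries of mbf1Δ were below all of gcn4Δ for the 3 genes. PHO12, an acid phosphatase with the near copy PHO11, stood at -2.03, and VTC1, a subunit of the polyphosphate synthase, at -1.54.

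Unlike the ribosomal genes, the phosphate genes differed without MMS too. Untreated, 15 of 21 were lower in mbf1Δ, with a median of -0.75, where 3.49% of all genes were called lower. PHO89 was at 8.9, 12.7 and 14.1 CPM in untreated mbf1Δ and at 75.2, 62 and 47.7 CPM in untreated gcn4Δ, a difference of -2.37 (SE 0.23, adjusted p = 3.06e-07). SPL2 stood at -1.88 there and PHO84 at -1.46. The responses to MMS differed between the mutants by -0.44 for PHO89 (adjusted p = 0.277) and -0.31 for SPL2 (adjusted p = 0.192), neither called. Over the list the difference of responses was called downward for 5 of 21 genes and upward for 3, with a median of -0.19. Of all genes 22.8% were called downward and 21.0% upward. Treated wild type lay between the mutants for PHO89, at 22.5, 22.2 and 25.6 CPM, and for SPL2, at 44.8, 47.6 and 48.5 CPM. For the list the median against treated wild type was -0.70 in mbf1Δ, with 16 of 21 lower, and 0.40 in gcn4Δ, with 12 of 21 higher.

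The binding core of the phosphate regulator Pho4, CACGTG, reads the same on both strands; it was added after the values were seen. It was in 13 of 21 phosphate windows and in 4.55% of all windows. The window of SPL2 (chrVIII:375201-375500, minus strand) is printed because it holds 2 matches, in capitals. The window of PHO84 held none.
SPL2: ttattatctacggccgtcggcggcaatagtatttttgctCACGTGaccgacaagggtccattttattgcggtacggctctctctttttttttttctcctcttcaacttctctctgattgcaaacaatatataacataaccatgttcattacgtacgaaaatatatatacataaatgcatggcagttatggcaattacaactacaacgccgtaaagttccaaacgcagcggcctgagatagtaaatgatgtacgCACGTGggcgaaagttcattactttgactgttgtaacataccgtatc
The motif shares of this list and of all windows are descriptions of sequence.

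Genes of cell surface, mating and iron were lower in treated mbf1Δ in part. All 11 daughter separation genes were called lower, with a median of -0.58. CTS1, the endochitinase that cuts the septum, was at 894, 1040 and 1050 CPM against 2680, 2590 and 2640 CPM, a difference of -1.41 (SE 0.11, adjusted p = 3.09e-10). DSE2, a daughter cell wall protein, stood at -1.15. The cell wall genes TOS6 and SCW10 stood at -1.81 and -1.79 with no overlap between groups.

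Of 27 MATa and pheromone genes tested 20 were lower and 1 higher, with a median of -0.48. AGA2, the adhesion subunit of a-agglutinin, was at 33.8, 35.8 and 34.7 CPM against 85.5, 88.9 and 96.3 CPM, a difference of -1.38 (SE 0.07, adjusted p = 1.22e-12). MFA1, the a-factor precursor, stood at -1.14. In the iron regulon 16 of 26 were lower and 3 higher, with a median of -0.51. ARN1, a siderophore transporter, was at 253, 421 and 400 CPM against 1170, 1180 and 1160 CPM, or -1.71 (SE 0.18, adjusted p = 5.6e-08). FRE1, a ferric reductase, stood at -1.18. Untreated, 6 of 27 MATa and pheromone genes (22.2%) were called lower and none higher, with a median of -0.13, where 3.49% of all genes were called lower. Of 11 daughter separation genes 1 was lower and 1 higher untreated, and of 26 iron genes 1 was lower and 2 were higher.

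**Figure D4:**
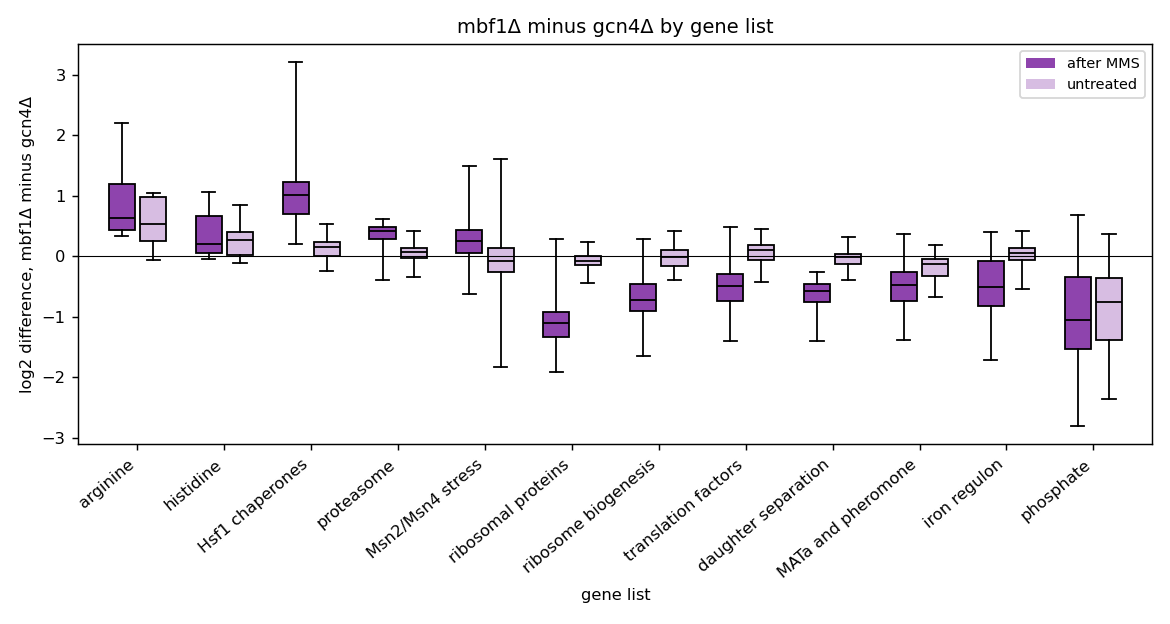
Log2 difference of mbf1Δ minus gcn4Δ for the members of 12 gene lists, after MMS and untreated; boxes span the quartiles, lines mark medians and whiskers reach the lowest and highest member. The treated medians of Hsf1 chaperones (1.01) and ribosomal proteins (-1.11) stand far from the untreated ones (0.14 and -0.08), while those of phosphate genes are -1.06 and -0.75.

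Mitochondrially encoded transcripts differed between the strains with and without MMS. The summed raw counts of COX2, COX3, COB and ATP6 were 76, 71 and 37 in treated mbf1Δ and 3, 4 and 2 in treated gcn4Δ. Across the 6 gcn4Δ libraries of both treatments the sum was 1 to 4, and across the 18 other libraries 26 to 76. These 4 genes were grouped after their counts were seen. ATP8 and VAR1 had 0 or 1 counts in every library of the series, while OLI1 and COX1 were not near 0 in gcn4Δ. OLI1 had 120, 84 and 77 raw counts in treated mbf1Δ and 148, 88 and 63 in treated gcn4Δ. The treated gcn4Δ libraries were each larger, and OLI1, scaled to library size, was called higher in treated mbf1Δ, at 0.52. All 6 mitochondrially encoded genes tested were called higher there, where 27.5% of all genes were. With 1 treated mutant library left out the count was 5 or 6. Against treated wild type all 6 were called lower in treated gcn4Δ, where 21.6% of all genes were. COX1 had 45, 45 and 27 counts in treated mbf1Δ and 24, 18 and 24 in treated gcn4Δ, so it was lower there but well above 0. Poly-A selection retains few such transcripts, and these counts are small in every library. COB and COX1 lie for the most part inside other annotated genes, whose reads cannot be told apart.

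Nuclear genes of the same organelle were described as a pair of lists. Respiration and TCA genes were higher in 18 of 50 cases and lower in 14, with CIT1, citrate synthase, at -0.85 and CYC7, a cytochrome c isoform, at 1.30. The count of higher genes in that list fell when single libraries were left out. There were 6 higher and 12 lower without treated mbf1Δ replicate 1, and 10 to 11 higher without any one of the treated gcn4Δ replicates. Over all genes the higher count fell in these settings too, from 1601 to 1148 and to between 1179 and 1195. Mitochondrial ribosomal protein genes were higher in 27 of 70 cases and lower in 3, with a median of 0.20. On deposited TPM that median was -0.06, and relative to all genes it was 0.17 there and between 0.12 and 0.24 over the 16 alternatives. Without treated mbf1Δ replicate 1 the higher count was 16, and without treated gcn4Δ replicate 1 it was 17. Untreated, 9 of these 70 (12.9%) were lower, against 3.49% of all genes, and none higher, with a median of -0.25. Whether the counts of the mitochondrial genes bear on any other difference was not tested.

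In the fit used here fewer genes were called before MMS than after it, an order that depended on the scale. Untreated, 355 of 5822 genes (6.1%) were higher and 203 (3.49%) lower in mbf1Δ than in gcn4Δ, together 9.58%. On deposited TPM 71 were higher and 2935 lower untreated, against 242 and 2244 after MMS, so more genes were called untreated on that scale. With the compared libraries fitted alone the counts were 633 and 569 untreated, against 1254 and 1272 after MMS. Of the 355 called higher untreated, 167 (47.0%) were called higher after MMS too, which is 10.4% of the 1601 higher genes there. Of the 203 called lower untreated, 93 (45.8%) were called lower after MMS too, which is 6.09% of the 1527 lower genes there. Over all genes 27.5% were called higher and 26.2% lower after MMS. Among the genes past 2-fold after MMS, 28 of 85 higher ones (32.9%) and 26 of 230 lower ones (11.3%) were called the same way untreated. Across 5822 genes the treated and untreated differences had a Pearson correlation of 0.296 and a Spearman correlation of -0.01, as a description across genes, which are not independent; the libraries of the 2 comparisons are separate, while the strains are shared.

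The difference of the MMS responses, mbf1Δ minus gcn4Δ, was called for 1224 genes upward (21.0%) and 1329 downward (22.8%), together 43.9%. It shares libraries with the treated comparison. It was called downward for 125 of 137 ribosomal protein genes (median -1.02) and 101 of 125 ribosome biogenesis genes (median -0.66). It was called upward for 30 of 32 Hsf1 chaperone genes (median 0.74). For arginine genes 6 of 10 were upward and 2 downward. ARG1, one of the downward pair, was at 50.2, 49.5 and 56.6 CPM in untreated mbf1Δ and at 25.9, 23.7 and 26.6 CPM in untreated gcn4Δ. That resting gap of 1.04 for ARG1 was larger than the treated one of 0.62, and the responses differed by -0.41 (SE 0.12, adjusted p = 0.0101). For ARG7 the responses differed by 1.60 (SE 0.071, adjusted p = 1.15e-12).

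**Figure D5:**
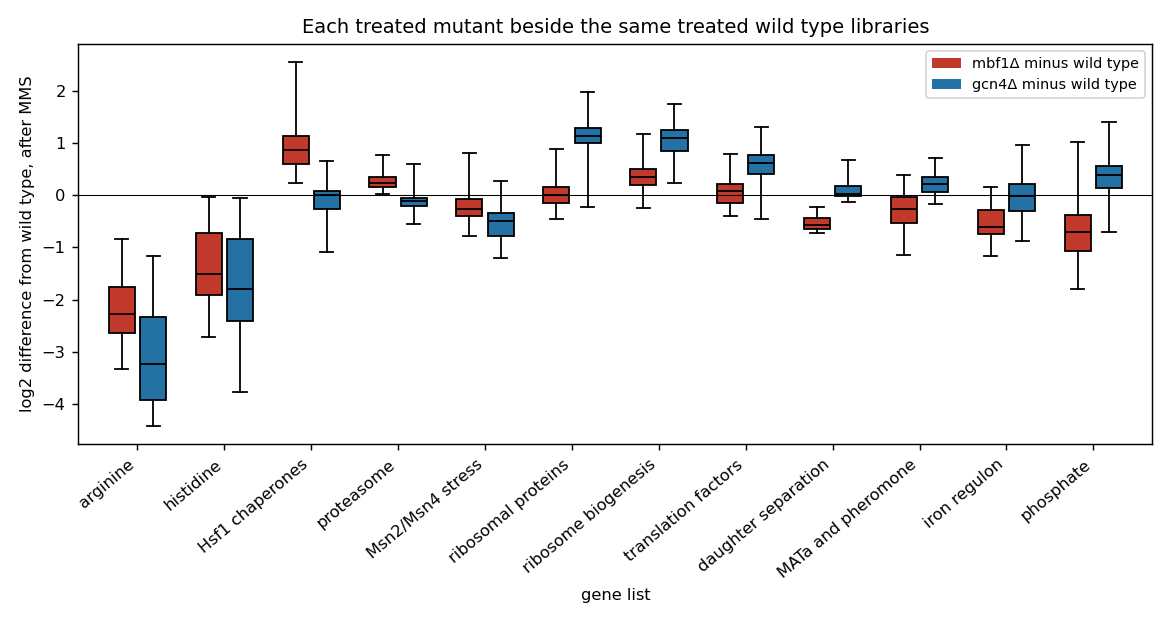
Log2 difference from treated wild type for the members of 12 gene lists in treated mbf1Δ and treated gcn4Δ; boxes span the quartiles, lines mark medians and whiskers reach the lowest and highest member. Both columns share the 3 wild type libraries. Ribosomal protein medians are 0.01 in mbf1Δ and 1.15 in gcn4Δ, Hsf1 chaperone medians 0.88 and 0.01, and arginine medians -2.28 and -3.23.

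The neighbours of the deleted genes were examined because they lie beside the cassettes. MUM3, beside MBF1, was at 8.23, 8.04 and 9.67 CPM in treated mbf1Δ and at 18, 18 and 19.7 CPM in treated gcn4Δ, or -1.11 (SE 0.11, adjusted p = 3.3e-08). Untreated the order was reversed, with 17.9, 16.6 and 18 CPM against 7.38, 5.99 and 6.95 CPM, or 1.37 (SE 0.12). BUD7, on the other side of MBF1, stood at 0.21. The neighbours of GCN4 were not called, at -0.23 for YEL009C-A (adjusted p = 0.359) and -0.19 for YEL008W (adjusted p = 0.402).

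The remaining leading genes belong to no list. TMA10, a ribosome-associated protein of little-known function, was at 58.5, 60.6 and 68.1 CPM in treated mbf1Δ and at 11.8, 16.2 and 17.8 CPM in treated gcn4Δ, a difference of 2.03 (SE 0.15, adjusted p = 2.44e-10). BSC5 was at 72.6, 62.6 and 64.8 CPM against 21, 20.7 and 20.4 CPM, or 1.69 (SE 0.084). YOL131W, an uncharacterised gene, stood at 1.84. The groups did not overlap for any of the 3.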

How the data were processed

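RNA from 24 libraries was poly-A selected and sequenced, per the labels' protocols. The authors' estimated counts per gene come from Salmon 1.10.1 with the R64 build, after FastQC 0.11.9 and fastp, per the submitters' processing notes; the deposited TPM values divide them by an effective length, per the file headers. Strand handling is not given in the sources used here. The authors' DESeq2 1.38.3 tables compare other groups and were not used.

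Estimated counts were rounded and scaled by TMM in edgeR 4.0.16 (R 4.3.3). Genes passed the filter at a minimum count of 10, which left 5824, and all 24 libraries in 8 groups were fitted together, with 16 residual degrees of freedom. Calls used the quasi-likelihood test with Benjamini-Hochberg adjustment at 0.05, and SE is the size of the log2 difference divided by the root of F. The biological coefficient of variation was 8.49%. Library totals over the series ran from 13518147 to 28366559 counts. Alternatives used DESeq2 1.42.0, other scalings and filters, and limma 3.58.1 on log2(TPM + 1). The code was tested on simulated data. Near copies were found with blastn 2.17.0.

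Named genes are the 12 largest and 12 smallest called differences with at least 50 mean counts and no overlap, up to 3 members per list and direction by adjusted p, ARG1, HIS4, LYS1 and SNZ1, the 6 largest and 6 smallest differences of response, and the neighbours of both deleted genes; others are said to be chosen afterwards, and some named genes are not reported here. The comparison and the gene lists were chosen with earlier results of these data known. Upstream windows were cut from the genome 400 bases before each start codon.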

Additional observations from a re-analysis of the deposited data

Results flagged for a closer look

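The 12 genes given here had the 6 largest and 6 smallest differences of the MMS response among called genes, by the test of the difference of responses (edgeR, values in log2, mbf1Δ minus gcn4Δ). SSA4 and BTN2, chaperone genes, stood at 2.97 and 2.12. HSP12 and HXK1, general stress genes, stood at 3.32 and 2.19. ASC1, RPP0 and RPL4B, genes of the ribosome, stood at -2.03, -1.99 and -2.04, and RPL4B has a near copy. MUM3, the neighbour of MBF1, stood at -2.48. The rRNA-matching TAR1, YLR162W and YLR154C-G stood at 2.2, -2.0 and -2.25. AUA1 stood at 2.66, was not called in the treated comparison (1.27, adjusted p = 0.105) and lies for 58.6% of its length inside WWM1, so its reads cannot be told apart.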

How the results depend on the processing

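Of 204 counts recomputed over the alternatives, 177 stayed within 1.5 times the reported count and 27 moved. On deposited TPM the treated comparison gave 242 genes higher, 35 higher by at least 2-fold and 384 lower by at least 2-fold. The untreated one gave 71 and 2935, the difference of responses 387 higher, mbf1Δ against wild type 529 lower, and gcn4Δ against wild type 3690 and 228. On TPM rescaled without rRNA-like genes, chosen after seeing the data, the treated comparison gave 2714 and 911 genes (130 and 104 by at least 2-fold), the difference of responses 2238 and 763, and mbf1Δ against wild type 2225 and 670. With the compared libraries fitted alone, untreated counts were 633 and 569, and mbf1Δ against wild type had 717 higher. The causes were not tested.

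Leaving out 1 library at a time gave 1148 to 1562 higher and 1455 to 1699 lower genes after MMS, with 74 to 88 and 239 to 259 by at least 2-fold. Untreated counts were 166 to 312 higher and 96 to 181 lower, at 166 and 96 without mbf1Δ replicate 3, 186 and 103 without gcn4Δ replicate 3, and 210 and 125 without gcn4Δ replicate 2. Differences of response were 795 to 1252 upward and 1098 to 1559 downward, with 795 without treated mbf1Δ replicate 1. Against wild type the ranges were 1009 to 1410 and 966 to 1196 for mbf1Δ, and 1108 to 1358 and 898 to 1133 for gcn4Δ.

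Replicate numbers share no stated source, and same-numbered treated libraries correlated at -0.049, 0.15 and -0.022 in their deviations. The replicate block gave 1560 and 1505 calls after MMS (84 and 231 by at least 2-fold), 329 and 184 untreated, 1176 and 1289 for the responses, 1203 and 1122 for mbf1Δ and 1267 and 1240 for gcn4Δ against wild type.

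Of 3701 values for single genes 3532 kept their side of the threshold and their direction, 155 lost the call, 2 gained it and 12 changed sign. On deposited TPM these were LYS1 (-0.00057), SER2 (-0.07), ADE12 (-0.04), PUT2 (-0.01), GLC7 (-0.0047), GCN1 (-0.01), ERG26 (-0.01), ERG20 (-0.1), MRS4 (-0.03) and BUD7 (-0.04), and on rescaled TPM MRPL4 (0.03) and MRP20 (0.13). Low counts limit the mitochondrially encoded genes.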

Other observations

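Some gene groups outside the main account also differed after MMS. Ergosterol synthesis genes were lower in treated mbf1Δ in 12 of 25 cases and higher in 3, and cyclin genes were lower in 9 of 18 and higher in 1, against 26.2% and 27.5% of all genes. Hexose transport genes were higher in 8 of 19 cases and lower in 1. ELO3, a fatty acid elongase, stood at -1.42 on the log2 scale. Histone genes, with 3 of 11 higher and 3 lower, and unfolded protein response genes, with 7 of 19 higher and 6 lower, were split. The latter count of higher genes was 3 without treated gcn4Δ replicate 3 and 4 without gcn4Δ replicate 1 or mbf1Δ replicate 3, and the count of lower genes was 3 without mbf1Δ replicate 1. The purine genes, lower in 7 of 15 cases after MMS, were higher in mbf1Δ in 10 of 15 cases untreated (median 0.37). The tRNA synthetases, lower in 15 of 22 after MMS, were higher in 12 of 22 untreated (median 0.19). Of all genes 6.1% were called higher untreated.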
